A study of Mus musculus with 6 samples.

Results

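Integrins are cell surface receptors built from an alpha and a beta subunit, and laminins are the cross-shaped basement membrane proteins, built from an alpha, a beta and a gamma chain, to which several integrins bind. All genes whose symbol starts as an integrin subunit or a laminin chain symbol does were taken from the deposited table of gene counts. The pattern matched 41 of the 18005 genes listed, namely 27 integrin subunits, 11 laminin chains and 3 integrin-binding proteins (Itgb1bp1, Itgb1bp2 and Itgb3bp) that share the letters but are not integrins. Of these, 39 had at least 10 counts summed over the 6 libraries, and 37 passed the filter on low counts and were tested.

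The transcripts came from hearts of 3 old and 3 young mice, all labelled WT and with no treatment, in a series titled for cardiac hypertrophy of age. The labels give neither age in months nor strain nor sex. Library totals lay between 11295280 and 12514005 counts, so that 1 count was worth 0.0799 to 0.0885 CPM before TMM factors were applied. CPM, counts scaled to a common library total, is used below with TMM factors for each gene across hearts. Levels of different genes were set side by side only in FPKM, in which the authors divided counts by the length of the gene and by the library total. Numbers from 1 to 3 in the titles name the mice of a group; nothing else says that they were separate animals, and p-values measure only the spread between these samples.

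In heart muscle, integrins at the costamere tie the contractile apparatus to the basement membrane around each fibre, and they carry mechanical load and signals in both directions across the membrane. In vessels, other integrins hold endothelial and mural cells to laminin, collagen and fibronectin. Leukocytes and platelets use integrins of their own to bind vessel walls, matrix and each other.

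A small set of these genes differed between old and young hearts, in both directions. Itgb1bp2, which encodes the muscle protein melusin, the fibronectin receptor subunit Itga5 and the leukocyte subunit Itgb2 were higher in old hearts, and the vitronectin receptor subunit Itgb5 and the laminin chain Lamb2 were lower. Itgb2 was called in only 8 of 19 alternative fits and Lamb2 in 16, whereas Itgb1bp2, Itga5 and Itgb5 were called in all 19. In all, 6 of 37 members passed an adjusted p of 0.05 in edgeR's quasi-likelihood test over all genes, 4 higher and 2 lower. Among all 12893 genes tested, 22.0% passed, 11.4% higher and 10.6% lower in old hearts, so the share of members called was not above that of genes in general. The median log2 fold change, old over young, was 0.00 over the members and -0.01 over all genes. The 3 old and the 3 young values did not overlap in 10 members, 6 higher and 4 lower in old hearts. Among all genes tested, 39.9% did not overlap, 19.6% higher and 20.3% lower in old hearts. At an unadjusted p under 0.05, 12 members passed, 6 higher and 6 lower in old hearts, against 2308 higher and 2334 lower among the 12893 genes.

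**Figure D1:**
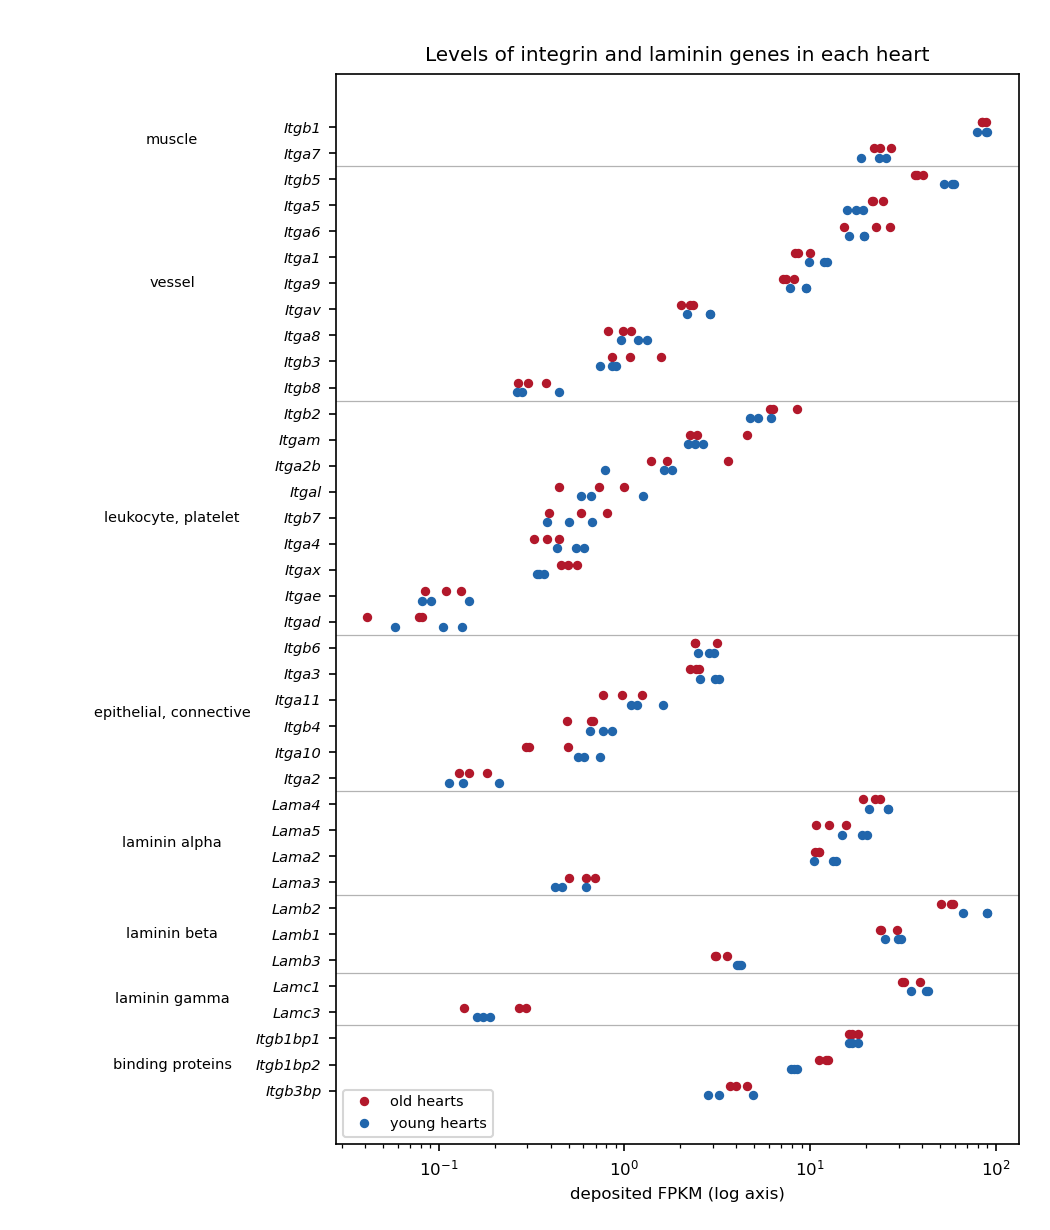
Deposited FPKM (horizontal log axis) of members with at least 10 counts, by class, with 1 point for each old heart and, below it, each young heart. Leaving out Itgb1bp2, whose level cannot be set against the others because of its deposited length, Itgb1 and Lamb2 have the highest means over all hearts, 85.8 and 68.7 FPKM.

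Per length, Itgb1 had the highest mean of the integrin subunits. Itgb1, the beta subunit that pairs with most of the alpha subunits here, averaged 85.6 ± 2.62 FPKM in old and 85.9 ± 5.67 FPKM in young hearts (SD, n = 3 each). Itgb5 followed among the beta subunits, with 38.3 ± 2.13 FPKM in old and 56.7 ± 3.65 FPKM in young hearts, and Itgb2 was far below both, with 6.93 ± 1.33 FPKM in old and 5.38 ± 0.725 FPKM in young hearts. Among the alpha subunits, Itga7, Itga5 and Itga6 came first at the deposited lengths, and they averaged 24.4 ± 2.69, 22.6 ± 1.69 and 21.6 ± 5.92 FPKM in old hearts. The same 3 averaged 22.6 ± 3.48, 17.6 ± 1.82 and 18.4 ± 1.94 FPKM in young hearts. Their order depends on the lengths: with GENCODE lengths, chosen after seeing the data, Itga7 was 29.5% to 36.1% of the alpha subunits' summed level in old hearts, above Itga6 (19.6% to 28.5%) and Itga5.

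The laminin chains with the highest level of their kind were Lama4, Lamb2 and Lamc1. Lama4, an alpha chain of vessel basement membranes, averaged 21.8 ± 2.37 FPKM in old and 24.4 ± 3.24 FPKM in young hearts. Lama5, also a vessel chain, averaged 13.0 ± 2.44 FPKM in old and 18.0 ± 2.82 FPKM in young hearts, and Lama2, the alpha chain of the muscle fibre's basement membrane, had 10.6 to 11.2 FPKM in old and 10.5 to 13.8 FPKM in young hearts. Lamb2 stood above Lamb1, with 55.4 ± 4.49 FPKM in old and 82.0 ± 13.3 FPKM in young hearts for Lamb2, and 25.7 ± 3.18 FPKM in old and 28.7 ± 2.98 FPKM in young hearts for Lamb1. Lama1, a chain known from embryonic basement membranes, had 3 counts over all libraries, and Itgb2l, a relative of Itgb2, had 1 count, in old heart 2.

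Of the muscle integrins, neither subunit passed the test. Itgb1 had 382, 370 and 357 CPM in old hearts 1, 2 and 3, against 356, 330 and 365 CPM in young hearts 1, 2 and 3. Itga7, which joins Itgb1 to form the main laminin receptor of striated muscle, had 151, 166 and 185 CPM in old hearts, against 151, 124 and 165 CPM in young hearts. The groups overlapped for both genes. The log2 fold change was 0.08 ± 0.08 for Itgb1 (SE, edgeR adjusted p = 0.53), and its sign turned when libraries were scaled by their totals alone and in the FPKM tests. For Itga7 it was 0.19 ± 0.11 (edgeR adjusted p = 0.25). At an unadjusted p under 0.05, 0 of these 2 passed, and limma-voom and DESeq2 called 0 as well.

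Itgb1bp2 did change. Melusin, its product, binds the cytoplasmic tail of the Itgb1 protein, is found in heart and skeletal muscle, and is known in mice for its part in the response of the heart to pressure load. The gene had 173, 192 and 191 CPM in old hearts 1, 2 and 3, against 114, 128 and 120 CPM in young hearts 1, 2 and 3. Every old heart was above every young heart, with a wide gap between the groups. Means were 185 ± 10.7 CPM in old and 121 ± 6.67 CPM in young hearts, a log2 fold change of 0.62 ± 0.08 (adjusted p = 0.00041 in edgeR), and the call held without each library in turn. The deposited FPKM imply a length of 15081 bases for this gene, 11.5 times its longest transcript of 1314 bases in GENCODE vM21, so its FPKM level is not set against other genes here. Whether reads of other genes entered its counts was not tested, and the source of the extra length is not known. The neighbours of Itgb1bp2 in the RefSeq gene table were not called, with log2 fold changes of -0.13 ± 0.08 for Nono (edgeR adjusted p = 0.24) and -0.08 ± 0.10 for Taf1 (edgeR adjusted p = 0.57). Values of neighbours cannot show which exons were counted for Itgb1bp2. Of 9 cardiomyocyte markers, 2 were called higher, against 11.4% of all genes tested, with a list median log2 fold change of 0.10. That count was 1 without old heart 1, young heart 1 or young heart 3, 1 with the gene length trend removed, and 3 without young heart 2. The summed level of the 9 markers was 71300 to 77300 CPM in old and 59000 to 62100 CPM in young hearts. Most of the difference came from Actc1, cardiac actin, with means of 17300 CPM in old and 8210 CPM in young hearts, and the part of these markers in the rise was not tested. In whole tissue, more or fewer cells of a type and more or less RNA per cell cannot be told apart. Itgb1bp1, a regulator that binds the same tail, had a log2 fold change of 0.09 ± 0.09 (adjusted p = 0.51 in edgeR).

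**Figure D2:**
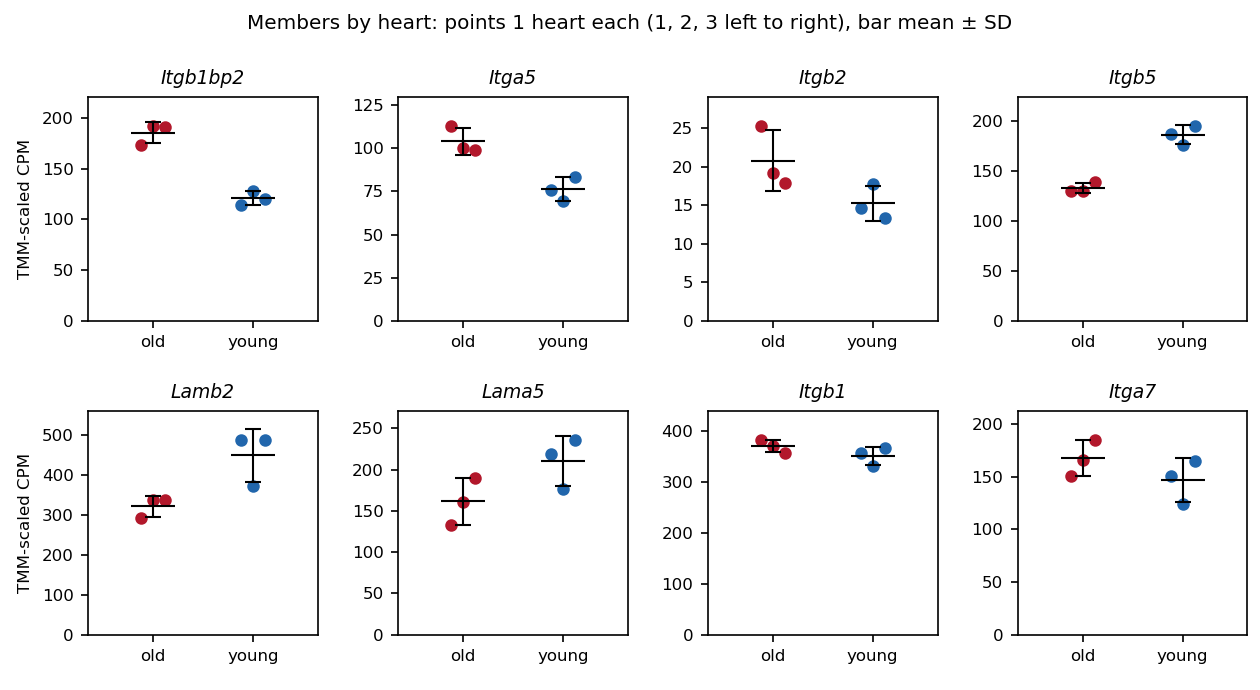
TMM-scaled CPM (vertical axis from 0) of 5 called members, Lama5, Itgb1 and Itga7, with a point for each heart, old hearts left and young hearts right, and the mean with SD. Old and young points do not overlap for the called genes, whereas they do for Lama5, Itgb1 and Itga7.

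Among the 9 vessel integrins, Itga5 was higher and Itgb5 was lower in old hearts, and 7 were not called. The median log2 fold change of the class was -0.15, against -0.01 over all genes tested. Of all genes tested, 22.0% were called, 11.4% higher and 10.6% lower in old hearts. Itga5 pairs with Itgb1 as the classical fibronectin receptor of endothelium and fibroblasts. Itgb5 pairs with Itgav, and that receptor binds vitronectin and activates latent TGF-beta. The 250 bases before the annotated start of called members are shown for Itgb5, Itga5 and the laminin chain Lamb2, called members with an entry in the RefSeq promoter table (GRCm38.p6, 26 of the 41 members had one). Itgb1bp2 and Itgb2 had none. The Itgb5 stretch is chr16:33829415-33829664 on the plus strand, that of Itga5 is chr15:103366792-103367041 on the minus strand, and that of Lamb2 is chr9:108479612-108479861 on the plus strand. Capitals mark matches to the motifs described after them.
Itgb5: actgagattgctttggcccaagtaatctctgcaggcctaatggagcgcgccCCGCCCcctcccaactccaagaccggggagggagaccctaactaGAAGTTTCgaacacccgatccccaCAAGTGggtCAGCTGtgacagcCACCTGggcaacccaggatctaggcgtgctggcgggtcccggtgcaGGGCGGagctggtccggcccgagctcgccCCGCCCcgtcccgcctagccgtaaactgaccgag
Itga5: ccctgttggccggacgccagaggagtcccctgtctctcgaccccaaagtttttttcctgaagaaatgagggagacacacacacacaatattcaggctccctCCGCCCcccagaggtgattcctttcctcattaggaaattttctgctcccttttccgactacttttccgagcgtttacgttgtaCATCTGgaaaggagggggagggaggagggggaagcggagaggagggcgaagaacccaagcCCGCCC
Lamb2: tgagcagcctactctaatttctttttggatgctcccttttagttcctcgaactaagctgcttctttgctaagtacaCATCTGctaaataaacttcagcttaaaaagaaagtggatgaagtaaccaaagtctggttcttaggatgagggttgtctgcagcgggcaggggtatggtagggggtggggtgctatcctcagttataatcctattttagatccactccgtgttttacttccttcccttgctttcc

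The stretches were searched on both strands for the AP-1 site TGANTCA, the heat shock element core GAANNTTC, the GC box GGGCGG, the E-box CANNTG and the clock E-box CACGTG, which is also counted as an E-box. Over the 32851 promoters of the table, windows of the same length held these in 6.75%, 6.69%, 32.7%, 66.2% and 6.02%, in that order. Itgb5 held 3 GC boxes, 3 E-boxes and 1 heat shock core, at 65.2% G and C. Itga5 held 2 GC boxes and 1 E-box, at 55.6%, and Lamb2 held 1 E-box, at 43.6%. These are matches of letters and say nothing of binding.

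Itgb5 had 130, 130 and 139 CPM in old hearts 1, 2 and 3, against 187, 176 and 195 CPM in young hearts 1, 2 and 3. Every old heart was below every young heart. Means were 133 ± 5.42 CPM in old and 186 ± 9.50 CPM in young hearts, a log2 fold change of -0.49 ± 0.08 (adjusted p = 0.0016 in edgeR). Itga5 moved the other way, with 113, 100 and 99.1 CPM in old hearts, against 76.0, 69.5 and 83.6 CPM in young hearts. Again no old value lay within the young range. Means were 104 ± 7.52 CPM in old and 76.4 ± 7.06 CPM in young hearts, a log2 fold change of 0.45 ± 0.09 (adjusted p = 0.0060 in edgeR). Both calls held without each library in turn.

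The remaining vessel subunits lay closer to the spread between hearts. Itga6, a laminin receptor subunit of endothelium, had 141, 96.8 and 165 CPM in old hearts, against 113, 97.3 and 115 CPM in young hearts. Old heart 2 was the lowest of all 6 and the other old hearts were above every young heart, so the groups overlapped. The log2 fold change of Itga6 was 0.31 ± 0.16 (edgeR adjusted p = 0.18), and without old heart 2 it was 0.51 (edgeR adjusted p = 0.0066). Itga1, which with Itgb1 binds collagen IV, had 50.6, 54.2 and 60.2 CPM in old hearts, against 68.4, 58.8 and 71.4 CPM in young hearts, where young heart 2 lay within the old range. Its log2 fold change was -0.27 ± 0.10 (edgeR adjusted p = 0.072), and it was called lower without old heart 3 (-0.33, edgeR adjusted p = 0.031) and without young heart 2 (-0.35, edgeR adjusted p = 0.035).

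Itgb3, the partner of Itgav on vessels and of Itga2b on platelets, had 9.65, 6.65 and 5.20 CPM in old hearts, against 5.15, 5.10 and 4.26 CPM in young hearts. The groups did not overlap, but old heart 3 was next to young hearts 1 and 2. Its log2 fold change was 0.57 ± 0.22 (edgeR adjusted p = 0.087), and 0.76 without old heart 3 (edgeR adjusted p = 0.017). Itgav, the alpha partner of Itgb5, had a log2 fold change of -0.18 ± 0.11 (adjusted p = 0.27 in edgeR). Itga9, known for lymphatic valves, Itga8 of mesenchymal and smooth muscle cells and Itgb8, a TGF-beta activating partner of Itgav, had log2 fold changes of -0.15, -0.19 and 0.02, with edgeR adjusted p-values of 0.29, 0.45 and 0.97. The sign of Itgb8 turned with the scaling. Beside these, the summed level of 11 endothelial markers was 2000, 2020 and 2480 CPM in old hearts, against 2570, 2330 and 2500 CPM in young hearts, with 1 marker called higher and 2 lower. That of 10 smooth muscle and pericyte markers was 1710 to 1910 CPM in old and 1670 to 1920 CPM in young hearts, with 3 called in each direction. The rises numbered 0 without young heart 2 or 3, and 1 without old heart 2, old heart 3 or young heart 1. Calls over all genes tested were 11.4% higher and 10.6% lower in old hearts. None of the markers in these lists was at 0 in any heart, and their part in the vessel integrin results was not tested.

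**Figure D3:**
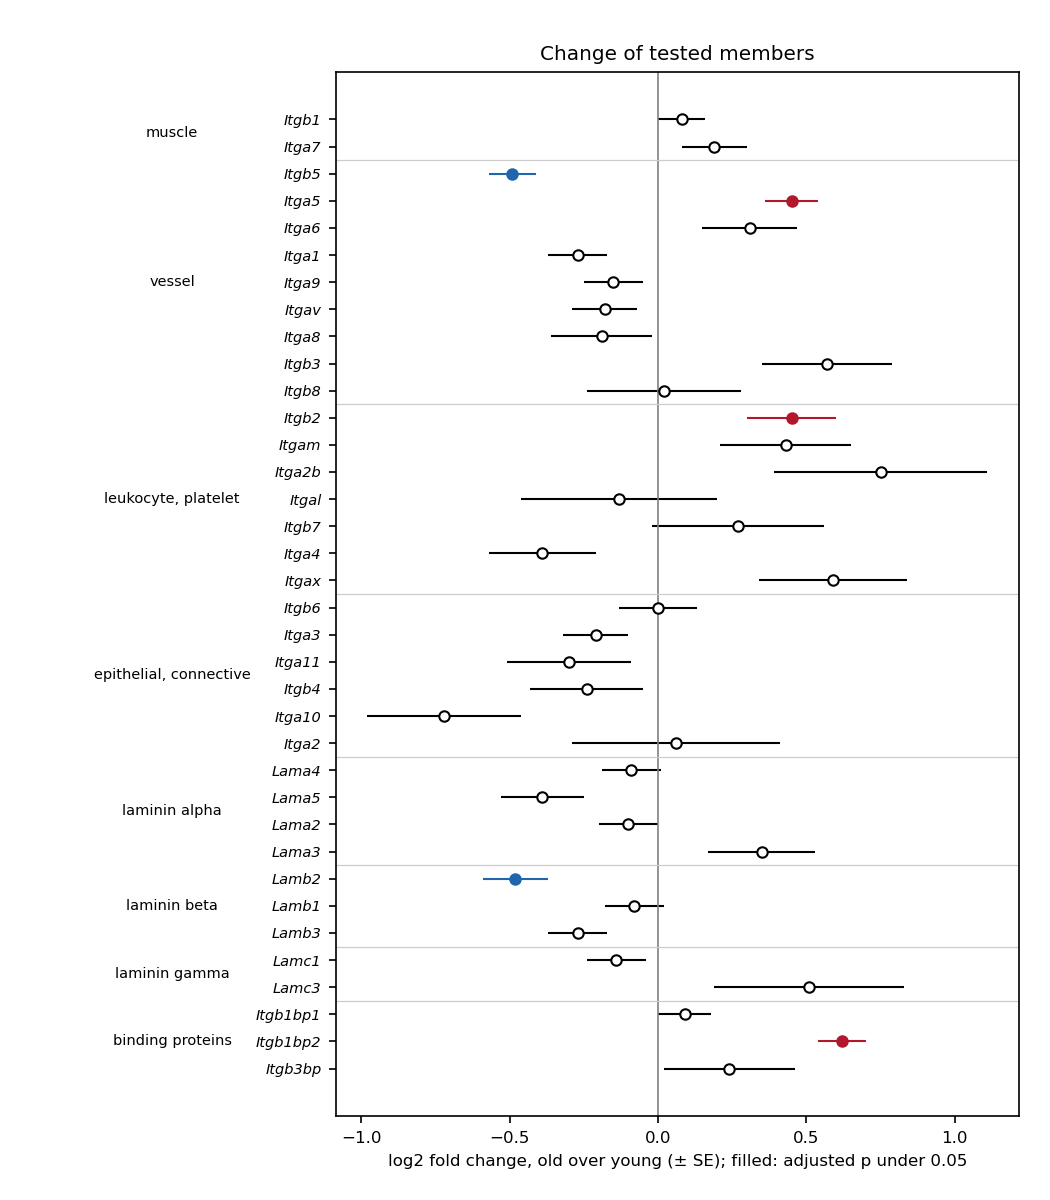
Log2 fold change, old over young, with its standard error (horizontal axis) for tested members by class. Filled points, red for higher and blue for lower in old hearts, are members with an adjusted p under 0.05, 5 of them plotted. They lie on both sides of 0.

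Of 7 leukocyte and platelet integrins tested, Itgb2 was called higher in old hearts and 6 were not called. Of all genes tested, 11.4% were called higher and 10.6% lower in old hearts. The class median log2 fold change was 0.43, against -0.01 over all genes tested, and it was 0.05 without old heart 1. Itgb2 is the beta subunit shared by the leukocyte receptors LFA-1 and Mac-1. It had 25.3, 19.2 and 17.9 CPM in old hearts 1, 2 and 3, against 14.6, 17.8 and 13.4 CPM in young hearts 1, 2 and 3. Old heart 1 was highest, and old heart 3 and young heart 2 were almost equal. Means were 20.8 ± 3.98 CPM in old and 15.3 ± 2.30 CPM in young hearts, a log2 fold change of 0.45 ± 0.15 (adjusted p = 0.048 in edgeR). Without old heart 1 the log2 fold change was 0.29 (edgeR adjusted p = 0.18), and the call was also lost without young heart 1 (edgeR adjusted p = 0.14) or young heart 3 (edgeR adjusted p = 0.19). DESeq2 gave an adjusted p of 0.066, and over the 19 alternatives the adjusted p lay between 0.018 and 0.20.

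Old heart 1 stood apart in most of this class. It was the highest old heart in 6 of the 7 genes, against 30.0% of all genes tested. Itgam, the alpha subunit of Mac-1, had 22.0, 12.1 and 10.7 CPM in old hearts, against 11.9, 10.3 and 10.9 CPM in young hearts, so only old heart 1 lay clearly above the young range. For Itgam the log2 fold change was 0.43 ± 0.22 (edgeR adjusted p = 0.19). Itga2b, the platelet fibrinogen receptor subunit, had 12.7, 6.14 and 4.85 CPM in old hearts, against 2.58, 6.15 and 5.42 CPM in young hearts. Old heart 1 was again the highest, and old hearts 2 and 3 lay within the young range. Its log2 fold change was 0.75 ± 0.36 (edgeR adjusted p = 0.16). Without old heart 1 the log2 fold changes were 0.05 for Itgam (edgeR adjusted p = 0.84) and 0.24 for Itga2b (edgeR adjusted p = 0.64). Without old heart 3, whose removal left old heart 1 as 1 of 2, both were called (0.63 for Itgam, edgeR adjusted p = 0.039, and 1.01 for Itga2b, edgeR adjusted p = 0.044).

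Itgax, an alpha subunit of dendritic cells and some macrophages, had 2.21, 2.51 and 1.99 CPM in old hearts, against 1.41, 1.49 and 1.55 CPM in young hearts. The groups did not overlap, at a low level. For Itgax the log2 fold change was 0.59 ± 0.25 (edgeR adjusted p = 0.11). Itgal, the alpha subunit of LFA-1, and Itgb7, the partner of Itga4 and Itgae on lymphocytes, had log2 fold changes of -0.13 ± 0.33 and 0.27 ± 0.29 (edgeR adjusted p = 0.81 and 0.53). Itga4, which binds VCAM-1 and fibronectin, had 5.21 ± 0.845 CPM in old and 6.80 ± 0.993 CPM in young hearts, a log2 fold change of -0.39 ± 0.18 (adjusted p = 0.14 in edgeR). Itgae and Itgad had 30 and 25 counts over all libraries and did not pass the filter on low counts. Fitted without that filter, their log2 fold changes were 0.11 ± 0.59 and -0.46 ± 0.66 (edgeR adjusted p = 0.93 and 0.68).

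**Figure D4:**
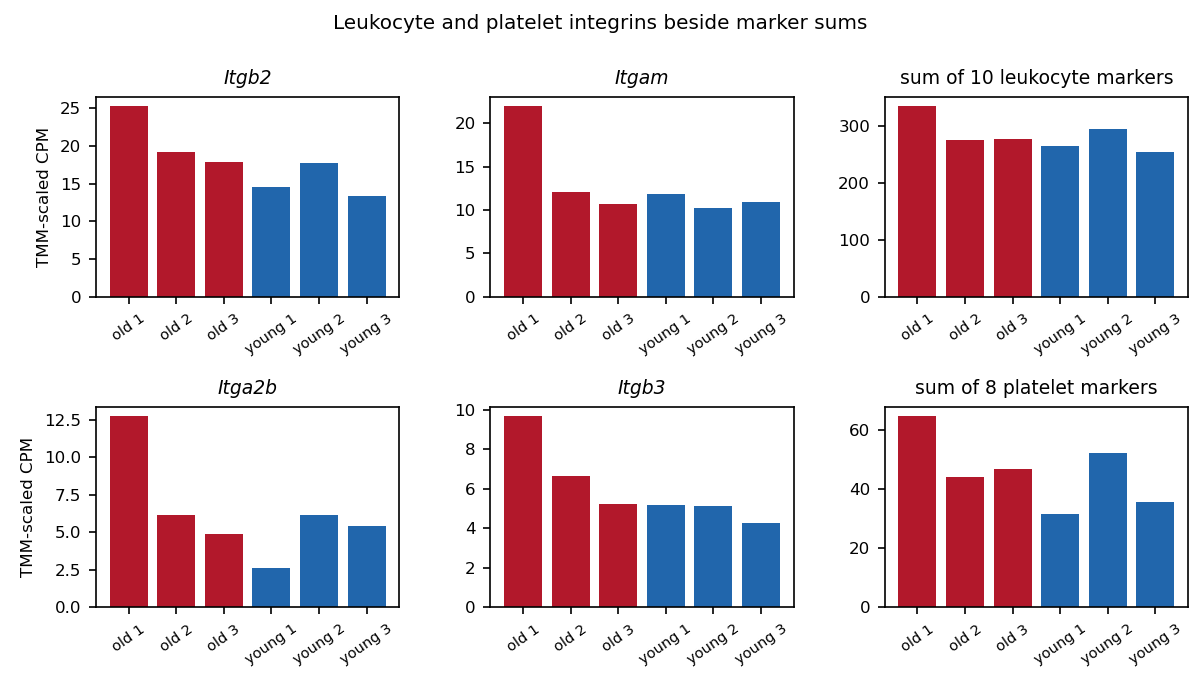
TMM-scaled CPM (vertical axes from 0) in each heart of Itgb2, Itgam, Itga2b and Itgb3, and of the sums of 10 leukocyte and 8 platelet markers, old hearts left in red and young hearts right in blue. Old heart 1 has the highest bar in all 6 plots.

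The marker lists of blood cells moved in both directions. Of all genes tested, 11.4% were called higher and 10.6% lower in old hearts. The sum of 10 leukocyte markers was 334, 274 and 277 CPM in old hearts, against 264, 294 and 253 CPM in young hearts. Of these 10 markers, 9 had a positive log2 fold change, against 6320 of the 12893 genes tested. The list median was 0.11, and 0.03 without old heart 1 and 0.00 with the gene length trend removed. In the main edgeR test, limma-voom and DESeq2, 0 were called higher (1 at an unadjusted p under 0.05 in edgeR). The rises numbered 1 with RLE scaling or without old heart 2, and 2 without old heart 3. Ptprc, the common leukocyte antigen CD45, was called lower, at a log2 fold change of -0.46 ± 0.15 (adjusted p = 0.045 in edgeR). DESeq2 did not call Ptprc, nor did edgeR with the replicate block or with the gene length trend removed, and it was called in 1 of the 6 fits that leave out a library. The sum of 11 macrophage markers was 1280, 1140 and 1010 CPM in old hearts, against 985, 1030 and 931 CPM in young hearts, with 3 called higher, 1 without old heart 1, young heart 1 or young heart 3, and 5 without old heart 3. The sum of 8 platelet markers was 64.6, 44.2 and 46.9 CPM in old hearts, against 31.5, 52.2 and 35.8 CPM in young hearts, and of 5 tested Pf4, platelet factor 4, was called higher (0.62 ± 0.11, edgeR adjusted p = 0.0021). No marker of these 3 lists was at 0 in any heart, and old heart 1 was the highest heart in all 3 sums. The sum of 10 T and NK cell markers was 29.6, 23.4 and 24.5 CPM in old hearts, against 22.7, 25.4 and 22.0 CPM in young hearts, and of 6 tested 2 were called higher and 1 lower by edgeR. The rises numbered 1 by DESeq2, and 1 without old heart 1, old heart 3, young heart 1 or young heart 3. The sum of 6 neutrophil markers was 17.6, 12.4 and 14.9 CPM in old hearts, against 17.6, 25.1 and 14.7 CPM in young hearts. Its 4 tested markers had negative log2 fold changes, with a median of -0.39. Of these 4, of 5 B cell and of 2 dendritic cell markers tested, edgeR, limma-voom and DESeq2 called 0, and 0 passed an unadjusted p under 0.05 in edgeR. Cd8a, Ngp and Clec9a, 1 marker each of T and NK cells, neutrophils and dendritic cells, were at 0 in at least 1 heart. The part of these lists in the integrin values was not tested.

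Of 6 integrin subunits of epithelium or connective tissue, 0 were called by edgeR, limma-voom or DESeq2, with a median log2 fold change of -0.23, and 1 passed an unadjusted p under 0.05. That was Itga10, a collagen receptor subunit of cartilage, with 2.57, 1.56 and 1.56 CPM in old hearts, against 3.59, 2.81 and 2.94 CPM in young hearts. All old values lay below the young ones, at a low level. Its log2 fold change was -0.72 ± 0.26 (edgeR adjusted p = 0.070), and -0.99 without old heart 1 (edgeR adjusted p = 0.038). Itga3, a laminin receptor subunit, Itga11, a collagen receptor subunit of fibroblasts, and Itgb4, the hemidesmosome partner of Itga6, had log2 fold changes of -0.21, -0.30 and -0.24 (edgeR adjusted p = 0.20, 0.33 and 0.40). Itgb6 and Itga2 had log2 fold changes of 0.00 ± 0.13 and 0.06 ± 0.35, and the sign of each turned with the scaling.

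Among the 10 laminin chains tested, Lamb2 fell, and 7 of 10 had a negative log2 fold change. Of all 12893 genes tested, 6573 had a negative log2 fold change and 10.6% were called lower. The median over the chains was -0.09, against -0.01 over all genes. It was -0.02 with the gene length trend removed (-0.01 over all genes) and -0.18 with library totals alone (-0.09 over all genes). Lamb2 is the beta chain of laminins in muscle, vessel and nerve basement membranes. It had 292, 337 and 337 CPM in old hearts 1, 2 and 3, against 488, 373 and 488 CPM in young hearts 1, 2 and 3. Young heart 2 was closest to the old hearts, and the groups did not overlap. Means were 322 ± 26.1 CPM in old and 450 ± 66.4 CPM in young hearts, a log2 fold change of -0.48 ± 0.11 (adjusted p = 0.011 in edgeR). The call was lost without old heart 1 (-0.41, edgeR adjusted p = 0.054), young heart 1 (-0.42, edgeR adjusted p = 0.058) or young heart 3 (-0.42, edgeR adjusted p = 0.063).

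Lama3 and Lamb3, chains of the laminin that anchors epithelial cells, were not called. Lamb3 had 13.5, 16.0 and 13.6 CPM in old hearts, against 17.0, 17.2 and 17.7 CPM in young hearts, all old values being below the young ones, with a log2 fold change of -0.27 ± 0.10 (adjusted p = 0.088 in edgeR, and 0.049 at -0.34 without old heart 2). Lama3 had 6.11, 7.78 and 8.41 CPM in old hearts, against 7.11, 5.01 and 5.34 CPM in young hearts, with overlap and a log2 fold change of 0.35 ± 0.18 (adjusted p = 0.20 in edgeR). The sum of 6 epithelial markers was 1.30 to 2.60 CPM in old and 1.23 to 3.36 CPM in young hearts, and Epcam, Cdh1, Krt5 and Krt14 were each at 0 in at least 1 heart.

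Of the 4 alpha chains tested, edgeR called 0, limma-voom called 0 and DESeq2 called Lama5 lower, and 1 passed an unadjusted p under 0.05. Lama5 had 133, 161 and 190 CPM in old hearts, against 219, 177 and 236 CPM in young hearts. Old heart 3 lay above young heart 2. Means were 161 ± 28.8 CPM in old and 211 ± 30.3 CPM in young hearts, a log2 fold change of -0.39 ± 0.14 (adjusted p = 0.060 in edgeR). It passed without old heart 3 (-0.51, edgeR adjusted p = 0.011) and without young heart 2 (-0.50, edgeR adjusted p = 0.033), and its adjusted p was 0.24 without young heart 3, at -0.29. DESeq2 gave an adjusted p of 0.022. Lama4 and Lama2, the vessel and the muscle chain, had log2 fold changes of -0.09 ± 0.10 and -0.10 ± 0.10 (edgeR adjusted p = 0.59 and 0.48). Lamb1, Lamc1, the gamma chain of most laminins, and the rare gamma chain Lamc3 had log2 fold changes of -0.08, -0.14 and 0.51 (edgeR adjusted p = 0.60, 0.34 and 0.28).

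Young heart 2 had the lowest young value in 7 of the 10 laminin chains and in 22 of the 37 members (59.5%), against 38.6% of all genes tested. Young heart 3 had the highest young value in 7 of the 10 chains, against 36.0% of all genes tested. Old heart 1 had the lowest old value in 6 of the 10, against 30.1% of all genes tested. The chains were measured in the same hearts, so these counts are not independent observations. Laminin transcripts are long, with deposited lengths of 5639 bases for Lamb2 and 12052 bases for Lama5. Long genes tended to be lower in old libraries. Over all tested genes, the median log2 fold change was 0.13 in the fifth with the shortest genes and -0.10 in the fifth with the longest. The median was -0.07 in the next longest group, which had a median length of 5225 bases. With the length trend removed, Lamb2 had a log2 fold change of -0.42 (adjusted p = 0.015 in edgeR) and Lama5 one of -0.29 (edgeR adjusted p = 0.12). The part of gene length in the laminin values was not tested.

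**Figure D5:**
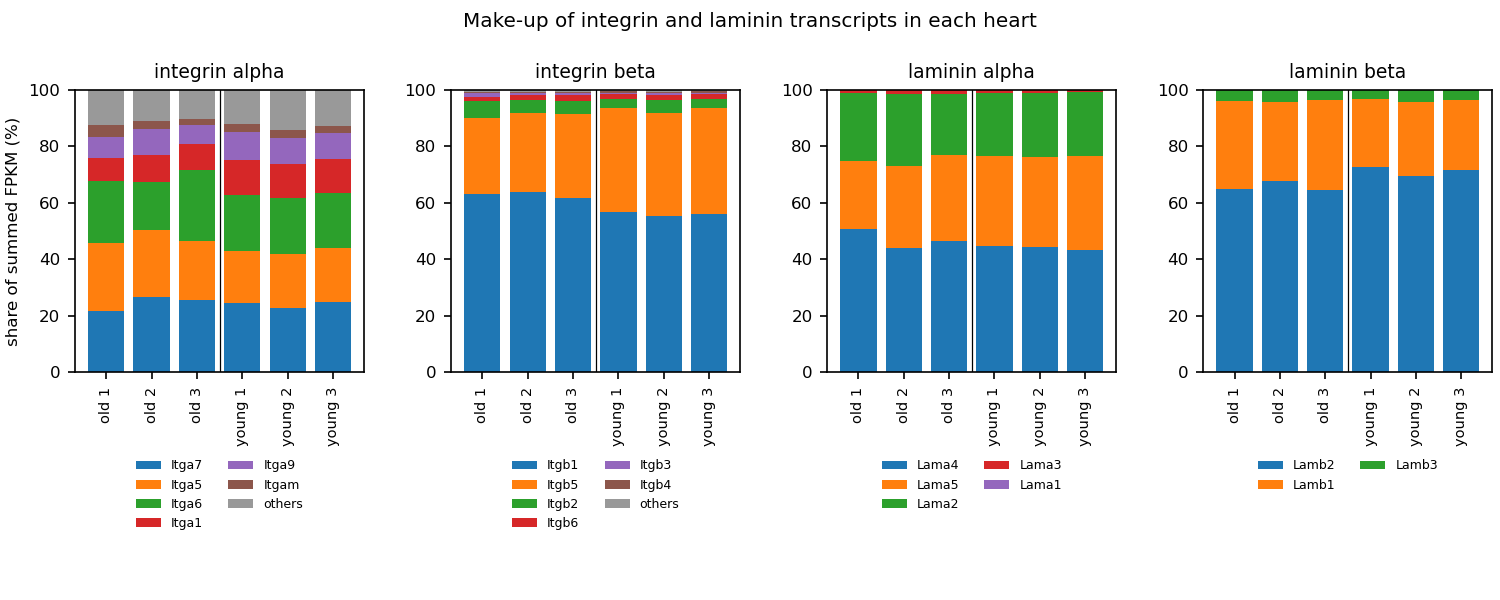
Share in percent (vertical axis) of each gene in the summed FPKM of integrin alpha, integrin beta, laminin alpha and laminin beta genes, in old hearts left and young hearts right of the line. The Itgb1 part of the integrin beta bars is 62.9% on average in old and 56.0% in young hearts, whereas Itgb1 itself averages 85.6 and 85.9 FPKM.

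The make-up of each kind of chain was followed as the share of a gene in the summed FPKM of its kind. This measure shares its reads with the tests above, and a rise in the share of a gene can come from a fall of another. The smallest p that an exact permutation test of 3 against 3 can give is 0.1, so none of the 38 shares could pass 0.05. After Benjamini-Hochberg adjustment over the 38, the smallest permutation p found was 0.2. Itgb1 made up 62.9% ± 1.18 of integrin beta FPKM in old and 56.0% ± 0.655 in young hearts, and Itgb5 28.1% ± 1.60 in old and 37.0% ± 0.401 in young hearts (exact 2-sided permutation p = 0.1 each). The mean level of Itgb1 was nearly equal, 85.6 FPKM in old and 85.9 FPKM in young hearts, and that of Itgb5 was 38.3 and 56.7 FPKM. FPKM levels, here and below, carry no TMM factors. Scaling by library totals alone moved the median log2 fold change of all genes from -0.01 to -0.09. In TMM-scaled CPM, Itgb1 averaged 370 in old and 350 in young hearts. Among integrin alpha genes, Itga5 made up 22.9% ± 1.96 in old and 18.8% ± 0.391 in young hearts, Itga1 9.02% ± 0.834 in old and 12.2% ± 0.157 in young hearts (exact 2-sided permutation p = 0.1 each). The share of Itga1 depended on its gene length, and the difference of -3.15 percentage points was -1.49 with the longest GENCODE transcript in place of the deposited length, an alternative chosen after seeing the data.

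Within the laminins, Lamb2 made up 65.7% ± 1.71 of beta chain FPKM in old and 71.3% ± 1.67 in young hearts, and Lamb1 30.4% ± 2.07 in old and 25.1% ± 1.19 in young hearts. The mean level of Lamb1 itself was not higher in old hearts, 25.7 FPKM against 28.7 FPKM in young hearts. Lama5 made up 27.9% ± 3.24 of alpha chain FPKM in old and 32.4% ± 0.761 in young hearts. For each of these 3 the groups did not overlap (exact 2-sided permutation p = 0.1). That was common, and held for many other shares, among them those of Lama3, Itga3, Itgav and Itgb2. The share of Lama4, 47.0% in old and 44.1% in young hearts, overlapped. Summed over all beta chains, laminin FPKM was 84.4 ± 6.96 in old and 115 ± 16.4 in young hearts (exact 2-sided permutation p = 0.1, the smallest possible), and over all alpha chains 46.4 ± 4.17 in old and 55.5 ± 7.81 in young hearts (exact 2-sided permutation p = 0.2).

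Genes that act with integrins and laminins were counted in 4 lists from the same test. For comparison, 11.4% of all genes tested were called higher and 10.6% lower in old hearts. Of 35 integrin adaptors and focal adhesion genes tested, 8 were called higher and 3 lower in old hearts, with a median log2 fold change of 0.05. Zyx, which encodes the stretch-sensitive focal adhesion protein zyxin, averaged 176 ± 6.15 CPM in old and 97.4 ± 2.53 CPM in young hearts, a log2 fold change of 0.85 ± 0.08 (adjusted p = 2.7e-05 in edgeR). Tgfb1i1, the paxillin relative Hic-5, and Bcar1, the scaffold p130Cas, each had a log2 fold change of 0.68, with standard errors of 0.09 and 0.10 (edgeR adjusted p = 0.00041 and 0.00075). Cd151, a tetraspanin partner of laminin-binding integrins, had 0.40 ± 0.08 (edgeR adjusted p = 0.0037). These 4 held without each library in turn, but the count of falls was 0 without old heart 1, young heart 1 or young heart 3 and 1 without old heart 2, and the count of rises was 5 without young heart 1.

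Of 20 basement membrane genes other than laminins, 1 was called higher and 3 lower, with a median of -0.08. Smoc1, a secreted calcium-binding protein, averaged 8.62 ± 1.87 CPM in old and 18.9 ± 2.06 CPM in young hearts, a log2 fold change of -1.13 ± 0.15 (adjusted p = 0.00040 in edgeR). Pxdn, the peroxidase that cross-links collagen IV, and Ntn1, a netrin, had -0.46 ± 0.12 and -0.33 ± 0.10 (edgeR adjusted p = 0.018 and 0.031), and Egflam, the dystroglycan ligand pikachurin, had 0.39 ± 0.10 (edgeR adjusted p = 0.014). The falls numbered 1 without old heart 1, young heart 1 or young heart 3 and 5 without old heart 3, and the rises 0 without young heart 1 and 2 without old heart 2.

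Of 22 genes of the dystroglycan complex, the other laminin receptor of muscle, 2 were lower and 0 were higher, with a median of -0.10. edgeR called 0 higher, as did limma-voom and DESeq2, and 0 were higher at an unadjusted p under 0.05. Sgcd, delta-sarcoglycan, had -0.44 ± 0.11 (edgeR adjusted p = 0.014) and Utrn, utrophin, had -0.28 ± 0.08 (edgeR adjusted p = 0.023). The falls numbered 0 without young heart 3, 1 without old heart 1 or young heart 1, and 3 without old heart 3 or young heart 2.

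Of 22 integrin ligands other than laminins tested, 6 were higher and 1 lower, with a median of 0.17. Thbs1, the matricellular protein thrombospondin that binds several integrins, averaged 130 ± 35.1 CPM in old and 19.2 ± 2.96 CPM in young hearts (edgeR adjusted p = 3.1e-06, log2 fold change 2.76 ± 0.19). Icam1, the ligand of LFA-1 and Mac-1 on endothelium, averaged 49.0 ± 13.2 CPM in old and 22.4 ± 2.28 CPM in young hearts, a log2 fold change of 1.13 ± 0.17 (adjusted p = 0.00088 in edgeR). Ccn1, a matricellular ligand, had 162, 222 and 940 CPM in old hearts, against 102, 97.8 and 117 CPM in young hearts, with old heart 3 far above the rest (2.07 ± 0.50, edgeR adjusted p = 0.013). Tgfb3, whose latent form can be bound by Itgav receptors, had 0.39 ± 0.10 (edgeR adjusted p = 0.016). The rises numbered 2 without young heart 2, 3 without young heart 1, 4 without young heart 3 and 8 without old heart 2, and the fall was lost without old heart 1, young heart 1 or young heart 3.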

How the data were processed

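Poly(A) RNA of 3 old and 3 young hearts was sequenced after a stranded TruSeq preparation, per the labels' protocols. The authors deposited whole-number counts per gene and FPKM values; per the submitters' processing notes, the tools were HISAT2, Bowtie2, Trimmomatic, DESeq, StringTie, Cufflinks and HTSeq and the build GRCm39. No version, role or strand setting is given in the sources used here. The 12 deposited files of single samples equalled the tables. The deposited FPKM gave each gene 1 length.

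The gene test was that of edgeR 4.0.16, run under R 4.3.3 on the counts (filterByExpr, TMM, quasi-likelihood F test, 2-sided, no covariate), with Benjamini-Hochberg adjustment over 12893 genes and calls at 0.05, after the test had been tested on simulated data. Log2 fold changes are old over young, and standard errors come from the F statistic. Alternatives used other scalings and filters, limma 3.58.1 (voom, and log2 FPKM with a pseudocount of 1 or 0.1), DESeq2 1.42.0, removal of length trends (loess, span 0.5), a block for the mouse number and each library left out. Replicates differed by more than sampling noise.

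The genes named are all members with at least 10 counts, with values per library for called members, up to 4 called genes by smallest p in each related list, and markers that touch a result. A gene that the rule takes is not reported here and is counted in the totals. Members and lists were chosen with earlier results of these data known. Without the strand setting, reads of overlapping genes cannot be separated: Itga7, Itga9, Itga1, Itga4, Itgae, Itgad, Itgb4, Itgb2l and Itgb1bp1 overlap another gene of the count table by the RefSeq annotation, and the 6 called members do not. Coordinates stand only with the build of the promoter table, GRCm38.p6.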

Additional observations from a re-analysis of the deposited data

How the results depend on the processing

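Over 19 alternatives each, the 6 called members kept their sign in all 114 results and were no longer called in 14, of which 11 concern Itgb2 and 3 Lamb2. Members called higher numbered 4, and 3 to 7 with a library left out. Members called lower numbered 2, and 1 to 4 with a library left out, 5 with upper-quartile scaling, 6 with library totals alone, 1 at a threshold of 0.01 and 6 at 0.1. Over all genes, 1467 were higher, and 850 to 1597 with a library left out, 907, 897 and 810 in the FPKM tests (pseudocount 1, 0.1, and 1 without a filter) and 724 at 0.01. Lower were 1368, and 682 to 1444 with a library left out, 2122 with library totals alone and 531 at 0.01. Calls were higher in 51.7% of cases, against 40.2% with upper-quartile scaling, 32.7% with library totals alone, 35.1% in both filtered FPKM tests and 38.1% in the unfiltered one. The median of all genes was -0.01, -0.05 with upper-quartile scaling and -0.09 with library totals alone.

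Same-numbered mice correlated at 0.079, 0.082 and 0.0055 in their deviations, and differently numbered mice at -0.14 to 0.063. Deviations from means of 3 hearts cannot tell whether the numbers pair the samples. With the replicate block, 4 members were higher and 3 lower (1417 and 1317 of all genes), the added call being Lama5 (-0.39, edgeR adjusted p = 0.032), and with the length trend also removed 6 and 2 (1304 and 1236 of all genes).

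Sign changed 25 times, each time in members called in neither fit, and the cause was not tested. Itgb1 was -0.0043 with library totals alone and -0.0026 in the 3 FPKM tests. Itgb8 was -0.03 with upper-quartile scaling, -0.07 with library totals alone, -0.11 to 0.28 with a library left out (-0.10 without young 2, -0.09 without young 3), and -0.01 in the unfiltered FPKM test. Itgb6 was -0.04 and -0.07 with those scalings, -0.12 to 0.08 with a library left out (-0.08 without young 1), and -0.06, -0.08 and -0.06 in the FPKM tests. With a library left out, Itgal lay from -0.43 to 0.30 (0.13 without old 2) and Itgb7 from -0.00068 to 0.50. Itga2 was -0.01 with library totals alone, -0.12 to 0.36 with a library left out (-0.06 without old 3, -0.02 without young 3), and -0.0024 in the unfiltered FPKM test.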

Other observations

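The gene lengths implied by the deposited values differed from the longest GENCODE vM21 transcript by more than 1.5 times in 5 members. The ratio was 11.5 for Itgb1bp2, 2.13 for Itgb7, 1.66 for Itga7, 0.546 for Itga1 and 0.385 for Itgb3bp. FPKM levels of these genes depend on that length, and so do their fold changes in the fits with the length trend removed. In the main test the length does not enter the fold changes.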
